A study of Mus musculus with 26 samples.

Results

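The genes described here are 10 core members of the 2 Polycomb repressive complexes in mouse MII oocytes and 1-cell embryos. They are Ezh1, Ezh2, Eed, Suz12 and Jarid2 of Polycomb repressive complex 2 (PRC2) and Ring1, Rnf2, Bmi1, Pcgf1 and Pcgf6 of Polycomb repressive complex 1 (PRC1). They were taken by name, and each of the 10 symbols matched 1 of the 55401 gene IDs in the count table through the GENCODE vM21 annotation.

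PRC2 places methyl groups on lysine 27 of histone H3 (H3K27), and PRC1 places ubiquitin on histone H2A. Both marks accompany gene silencing, and each complex can bind the mark laid by the other. In the mouse the growing oocyte lays broad domains of H3K27 trimethylation (H3K27me3), which pass to the embryo and silence the maternal copy of a small set of imprinted genes. PRC1 assembles around 1 of several PCGF proteins, so the PCGF subunit names the kind of PRC1.

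The MII oocyte is the unfertilised egg, halted at the second meiotic metaphase. Its 4 libraries came from B6D2F1 oocytes at an age of 0 h, also from females 8 weeks old. All embryos were 1-cell embryos made by in vitro fertilisation of B6D2F1 oocytes with B6D2F1 sperm, from females 8 weeks old, and are labelled 10 h. One series of libraries holds 7 embryos given the c-Myc inhibitor 10058-F4, a thiazolidinone that blocks the pairing of c-Myc with its partner Max, and 7 control embryos. The inhibitor was added 2 h after sperm met oocytes, for 10 h, at a dose that no source used here gives. The other series holds the oocytes, 4 embryos kept in alpha-amanitin, which blocks RNA polymerase II, at 100 µg/ml for 10 h from 1 h after mixing, and 4 control embryos. The stated times do not all add up to the labelled 10 h, and the labels name no donors, litters or batches. The p-values therefore measure the spread between libraries, which may be technical.

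The first series had 20566278 to 27266040 counts per library and the second 5371602 to 31540627. All 10 oocyte and egg marker genes checked were present in every group. Their summed level was 4243 to 6066 CPM (a gene's counts per 1000000 counts of the library) in controls of the first series and 7242 to 8898 CPM in their treated counterparts, so the marker sum moved with that treatment. It was 8625 to 9558 CPM in oocytes, 4429 to 5578 CPM in the alpha-amanitin controls and 4505 to 7009 CPM under alpha-amanitin. The part of these oocyte transcripts in the results below was not tested. Cumulus and granulosa cell markers summed to 5.20 to 73.4 CPM, sperm markers to 0 to 23.3 CPM, and the 4 hemoglobin genes were at 0 throughout. Ptprc, the other blood marker checked, reached 4.95 CPM in an alpha-amanitin library and averaged 1.30 CPM in that group. In the other groups it reached at most 0.317 CPM. CPM is a share of a library, so a change in a gene's RNA per cell and an opposite change in the rest of the RNA cannot be told apart.

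Every gene except Ring1 was abundant in the egg and stayed so in the 1-cell embryo. Levels of different genes can be compared only per length, so counts were also divided by the length of each gene's exons and scaled to a common total per library. On that per-length scale Bmi1, a PCGF subunit of canonical PRC1, came first in oocytes with a mean of 634 (range 523 to 748). Suz12, the PRC2 subunit that holds the core together, was second at 447. Pcgf1 followed at 298 and Ezh2 at 243, with ranges that overlapped each other's, and the ranges of Suz12 and Pcgf1 overlapped too. Eed stood at 156, Rnf2 at 152, Jarid2 at 89.6, Pcgf6 at 87.6 and Ezh1 at 43.6. Among these, Eed could not be ordered against Rnf2, nor Jarid2 against Pcgf6, since their ranges overlapped. Bmi1 was first and Suz12 second by mean in all 5 groups, and Ezh1 and Ring1 were last. Dividing by the longest transcript instead of all exons moved Suz12 from place 2 to place 4 in every group, and Ezh2 to place 2 in 4 groups and to place 1 in the c-Myc inhibitor controls.

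Ring1 and Rnf2 encode the alternative ubiquitin ligases of PRC1, and nearly all of the RNA of the pair came from Rnf2. Ring1 had 7 counts over the 4 oocyte libraries, all in replicate 1, and 16 over the 7 c-Myc inhibitor libraries, all in replicate 3. It had 1 count in 1 alpha-amanitin library and none in either control group. A count of 0 over the 7 c-Myc inhibitor controls allows up to 0.0187 CPM, and over the 4 alpha-amanitin controls up to 0.0399 CPM, for counting error only. Rnf2 was at 175 to 237 CPM as a group mean. Ring1 was too low for any test, which left 9 of the 10 genes.

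**Figure D1:**
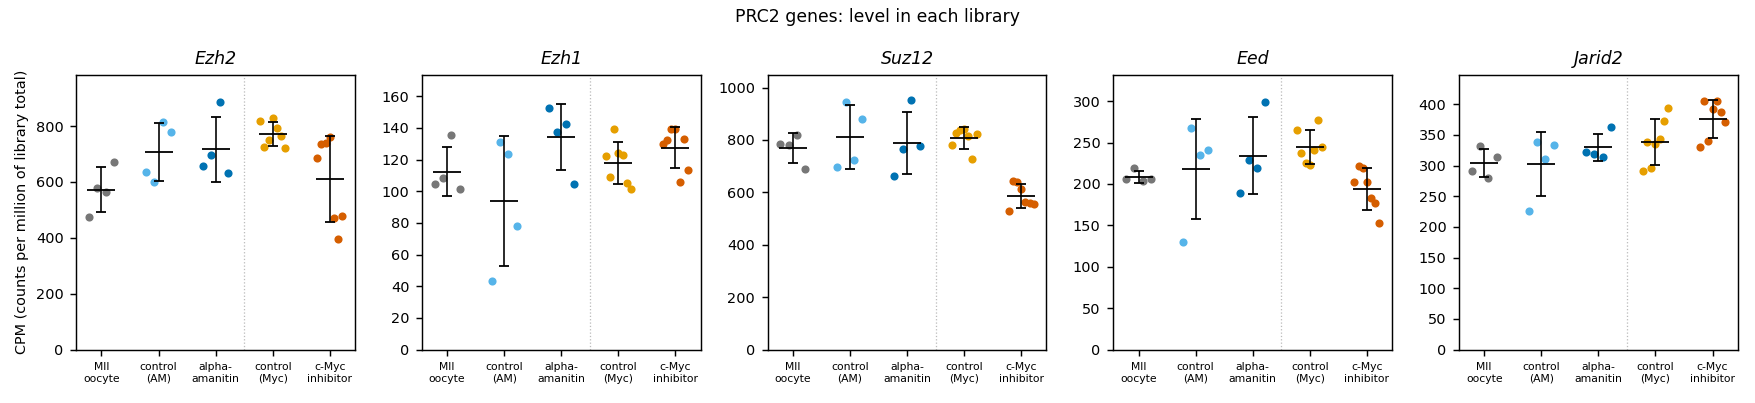
Level of the 5 PRC2 genes in each library in CPM, by group, with the mean and SD as bars; the dotted line parts the 2 series. All 7 c-Myc inhibitor embryos lie below all 7 controls for Suz12 and for Eed, while for Ezh2 only replicates 5, 7 and 8 stand far below.

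**Figure D2:**
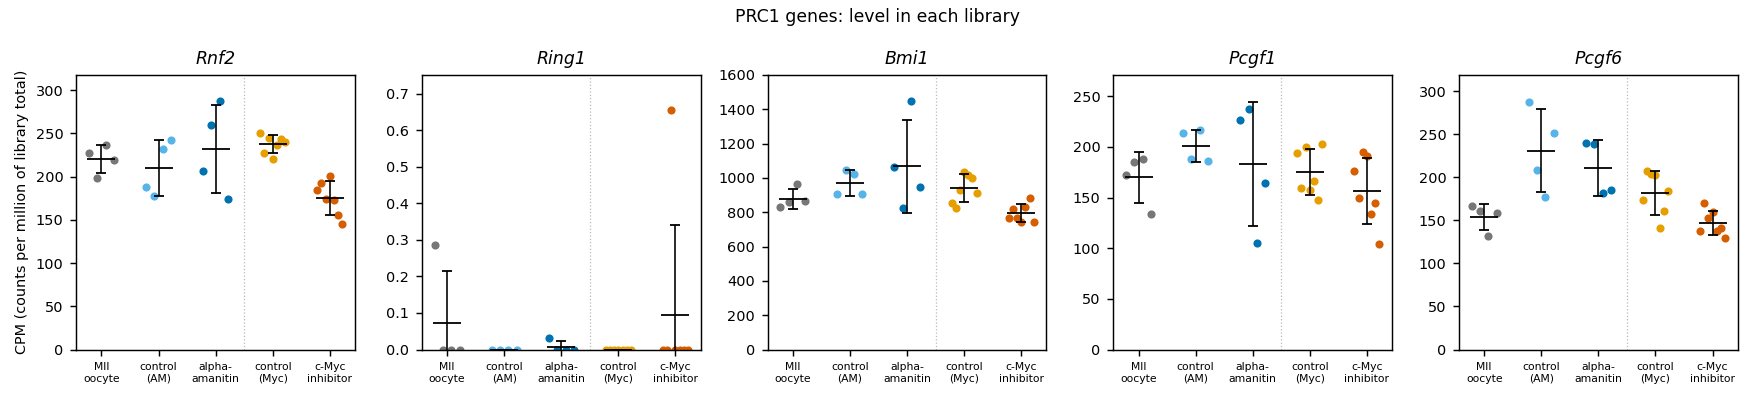
Level of the 5 PRC1 genes in each library in CPM, by group, with the mean and SD as bars and a separate vertical scale for each gene. Rnf2 of all 7 c-Myc inhibitor embryos lies below its controls, and Ring1 stays under 0.7 CPM in every library.

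The comparison of c-Myc inhibitor embryos with their controls asked which transcripts respond when c-Myc cannot pair with Max. The RNA of 5 Polycomb genes was lower in treated embryos: Suz12 and Eed of PRC2, and Rnf2, Bmi1 and Pcgf6 of PRC1. None was higher. Suz12 fell by 26.5%, Rnf2 fell by 25.5%, Eed fell by 19.8%, Pcgf6 fell by 18.1% and Bmi1 fell by 14.6%. Of all 13003 genes tested, 4.08% were called lower and 6.82% higher by the edgeR quasi-likelihood test at a Benjamini-Hochberg adjusted p under 0.05, 10.9% together. Abundant genes were called more often: among the 2288 genes averaging 100 CPM or more, as all 9 tested members did, 14.6% were called lower. The median log2 fold change was -0.29 over the 9 members and -0.00049 over all genes tested, and 7 of the 9 were below 0.

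Suz12 is needed for PRC2 to be stable and active. Its control libraries lay between 727 and 843 CPM with a median of 822, and the treated libraries between 529 and 645 CPM with a median of 564. All 7 treated embryos were below every control, and also below the 12 libraries of the other series, whose lowest Suz12 value was 661 CPM in an alpha-amanitin embryo. The latter comparison crosses series, and the share of all genes below all 19 other libraries was not computed. Of the other called members, Bmi1 had 5 of 7 treated libraries below all 19, Rnf2 had 4, Pcgf6 had 1 and Eed had 0. The means were 587 ± 45.2 CPM (SD, n = 7) under the inhibitor and 808 ± 40.9 (SD, n = 7) in controls. The log2 fold change was -0.44 (SE 0.07), with an edgeR adjusted p of 4.39e-05. Leaving out any 1 of the 14 libraries kept the call, with values of -0.47 to -0.42.

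Eed, the subunit that reads H3K27me3 and lets PRC2 spread its mark, ran from 223 to 278 CPM in controls with a median of 241. Treated embryos ran from 152 to 222 CPM with a median of 202. The groups did not overlap, but only just: the highest treated library had 222.1 CPM and the lowest control 222.5 CPM. The log2 fold change of Eed was -0.32 (SE 0.09), with means of 194 ± 25.0 and 245 ± 20.2 CPM (SD, n = 7 each) and an edgeR adjusted p of 0.0196. The call was lost without control replicate 7, at an adjusted p of 0.0521, and in a single fit of all 5 groups, at 0.214.

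Ezh2 and Ezh1 carry the methyltransferase activity of PRC2, and Ezh2 is the form of dividing cells. Ezh2 controls lay close together, at 723 to 829 CPM with a median of 765. The treated embryos spread from 397 to 759 CPM with a median of 685. Treated replicates 5, 7 and 8 had 472, 397 and 477 CPM, while the other 4 had 685 to 759 CPM and partly overlapped the controls. The means were 610 ± 154 and 772 ± 42.8 CPM (SD, n = 7 each), and the log2 fold change of -0.33 (SE 0.12) did not pass the edgeR test, at an adjusted p of 0.0826. It did pass with DESeq2, at an adjusted p of 0.0262, with limma voom at 0.0315, with no filter on low counts at 0.0463, and when treated replicate 2, 3 or 4 was left out, at 0.0428, 0.0494 and 0.0440. The same replicates 5, 7 and 8 were also the 3 lowest treated libraries for Eed, Rnf2 and Pcgf1. Replicate 5 was the deepest library of the group with 27266040 counts, and replicates 7 and 8 had 25512596 and 21935321; the part of depth was not tested.

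Ezh1, the form more typical of resting cells, had 102 to 139 CPM in controls (median 122) and 106 to 140 CPM in treated embryos (median 132). The log2 fold change was 0.13 (SE 0.10), with an edgeR adjusted p of 0.496. Jarid2, which helps bring PRC2 to its targets, had 291 to 394 CPM in controls (median 339) and 330 to 405 CPM in treated embryos (median 388). Its log2 fold change was 0.17 (SE 0.08) with an edgeR adjusted p of 0.221. Both ranges overlapped widely, and these 2 were the members with values above 0.

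Rnf2, the ubiquitin ligase that gave nearly all of the pair's RNA, ran from 221 to 251 CPM in controls with a median of 240. In treated embryos it ran from 145 to 200 CPM with a median of 174. The groups were well apart, with all 7 treated libraries below all controls. Rnf2 means were 175 ± 19.7 and 237 ± 10.5 CPM (SD, n = 7 each), and the log2 fold change was -0.42 (SE 0.08), with an edgeR adjusted p of 0.000692. The call held in each of the 14 fits that left out 1 library, with values of -0.45 to -0.38. The groups did not overlap for 3 calls, Suz12, Eed and Rnf2. Of all genes tested, 1.32% lay lower without overlap. That share was not computed for abundant genes alone, so it is not matched to these members in level.

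Bmi1 is a PCGF subunit of canonical PRC1, and Pcgf6 names a variant that is recruited with Max, Mga and E2f6. Bmi1 ran from 823 to 1035 CPM in controls (median 928) and from 741 to 882 CPM in treated embryos (median 767), with 5 of 7 treated libraries below all controls. Its log2 fold change was -0.23 (SE 0.07), with an edgeR adjusted p of 0.0471. Pcgf6 ran from 141 to 208 CPM in controls (median 184) and from 130 to 170 CPM in treated embryos (median 141), with 4 of 7 below all controls. Its log2 fold change was -0.29 (SE 0.09), with an edgeR adjusted p of 0.0484. Both calls sat at the threshold, and the share of all genes with as many treated libraries below all controls was not computed. Of 7 alternatives Bmi1 kept its call in 4 and Pcgf6 in 5. Both lost it with no filter on low counts, at an edgeR adjusted p of 0.0785. Bmi1 kept its call only in the 5 fits that left out control replicate 1, 2 or 8 or treated replicate 2 or 7, over adjusted p values of 0.0220 to 0.118. Pcgf6 kept it only in the 3 fits that left out control replicate 6 or 7 or treated replicate 2, over 0.0238 to 0.119. A single fit of all 5 groups called only Suz12 and Rnf2, with adjusted p values of 0.260 for Bmi1 and 0.235 for Pcgf6. That fit called fewer genes lower in general, 115 of 16319 against 531 of 13003.

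Pcgf1, the subunit of the variant PRC1 that Kdm2b brings to unmethylated CpG islands, had 148 to 202 CPM in controls (median 166) and 104 to 195 CPM in treated embryos (median 149). The ranges overlapped, and the log2 fold change was -0.15 (SE 0.12) with an edgeR adjusted p of 0.534. Among the tested PRC1 genes its treated libraries had the widest spread relative to their mean, with a coefficient of variation of 20.9%. Exons of genes on the opposite strand overlap Ezh2 over 174 bases, Eed over 261, Suz12 over 178 and Rnf2 over 158, and no source used here tells how strand was treated in counting.

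**Figure D3:**
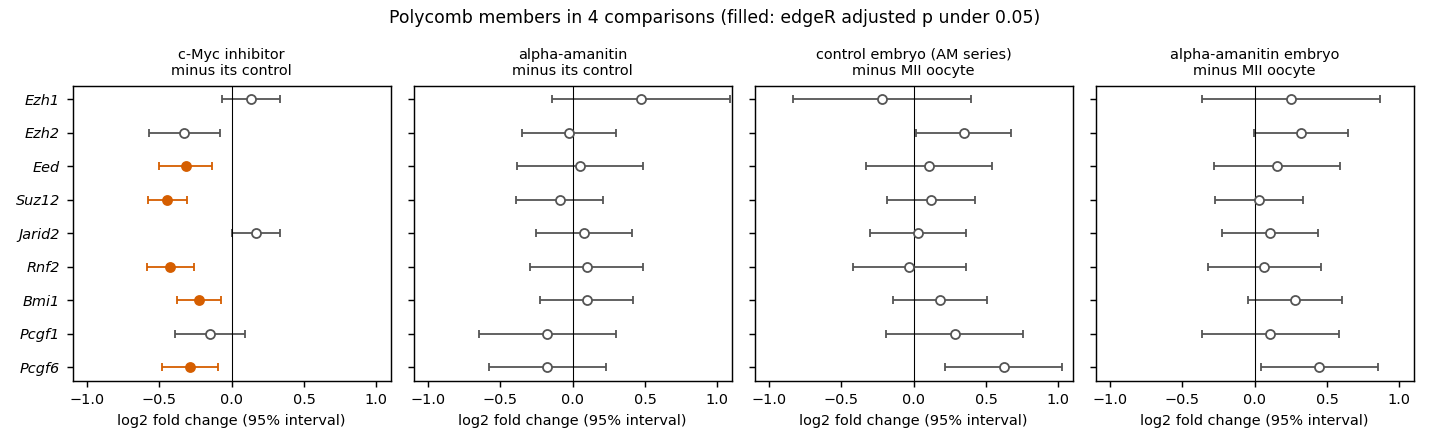
Log2 fold change of the 9 tested members in the 4 comparisons of groups, with 95% intervals, filled where the edgeR adjusted p is under 0.05. Filled points occur only for Suz12, Eed, Rnf2, Bmi1 and Pcgf6 under the c-Myc inhibitor.

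The stretches of 250 bases before the transcription start are shown for the 5 genes called lower under the c-Myc inhibitor. The compound acts on the c-Myc and Max pair, which binds the E-box CACGTG. Whether the 5 genes share a cause, or respond through these stretches, was not tested. The sequences are from RefSeq on GRCm38.p6, where 9 of the 10 members had an entry; Pcgf1 did not. They lie at chr11:79992856-79993105 on the plus strand for Suz12, chr7:89980977-89981226 on the minus strand for Eed and chr1:151500992-151501241 on the minus strand for Rnf2. Those of Bmi1 and Pcgf6 lie at chr2:18676768-18677017 (plus) and chr19:47050907-47051156 (minus). Capitals mark a match to CACGTG or to the E2F motif TTCCCGC, both searched on both strands; the motifs do not overlap each other.
Suz12: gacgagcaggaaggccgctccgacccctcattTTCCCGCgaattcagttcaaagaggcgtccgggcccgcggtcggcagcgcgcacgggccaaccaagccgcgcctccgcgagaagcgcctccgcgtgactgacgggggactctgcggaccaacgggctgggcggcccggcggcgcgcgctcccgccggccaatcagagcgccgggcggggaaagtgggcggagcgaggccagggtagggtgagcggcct
Eed: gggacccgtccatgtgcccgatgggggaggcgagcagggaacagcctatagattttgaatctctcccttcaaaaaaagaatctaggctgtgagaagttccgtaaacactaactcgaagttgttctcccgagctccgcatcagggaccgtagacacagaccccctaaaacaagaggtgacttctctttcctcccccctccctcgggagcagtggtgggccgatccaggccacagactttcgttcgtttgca
Rnf2: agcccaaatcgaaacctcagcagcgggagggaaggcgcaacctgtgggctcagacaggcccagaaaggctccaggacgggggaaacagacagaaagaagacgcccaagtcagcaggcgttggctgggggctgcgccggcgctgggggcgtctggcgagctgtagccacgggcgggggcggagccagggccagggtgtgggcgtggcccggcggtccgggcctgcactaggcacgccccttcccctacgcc
Bmi1: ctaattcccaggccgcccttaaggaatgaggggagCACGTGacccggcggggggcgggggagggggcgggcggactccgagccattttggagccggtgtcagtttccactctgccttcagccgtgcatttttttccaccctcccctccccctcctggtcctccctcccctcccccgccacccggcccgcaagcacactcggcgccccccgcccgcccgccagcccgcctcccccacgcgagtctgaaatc
Pcgf6: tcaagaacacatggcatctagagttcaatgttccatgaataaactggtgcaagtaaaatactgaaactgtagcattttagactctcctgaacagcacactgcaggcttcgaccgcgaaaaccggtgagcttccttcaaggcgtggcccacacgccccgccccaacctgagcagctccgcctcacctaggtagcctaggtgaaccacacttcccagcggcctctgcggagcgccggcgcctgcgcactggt
Of the 5, Bmi1 held an E-box, 215 bases before its start, and Suz12 an E2F motif 218 bases before its start. Among 32817 RefSeq windows of the same length 6.02% held CACGTG and 3.82% held TTCCCGC or its complement GCGGGAA. The windows of Eed, Rnf2 and Pcgf6 held neither, nor did those of Ezh1, Ezh2, Jarid2 and Ring1. GC content was 73.6% in the Suz12 window, 70.4% in those of Rnf2 and Bmi1, 56% in that of Pcgf6 and 54.4% in that of Eed, against a median of 52.4%. A match is a description of letters and not evidence of binding.

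The genes themselves lie apart in the genome. On GRCm38, Suz12 (ENSMUSG00000017548) spans chr11:79993106-80034123, Eed (ENSMUSG00000030619) chr7:89954654-89980983 and Rnf2 (ENSMUSG00000026484) chr1:151458004-151500955. Bmi1 spans chr2:18677018-18686629 and Pcgf6 chr19:47033617-47050906. Ezh2 spans chr6:47530139-47595341 and Ezh1 chr11:101191115-101226463. Of the 5 called genes no pair shares a chromosome.

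Around the core, 63 other Polycomb genes were listed, of which 62 had an ID and 57 were tested in the c-Myc inhibitor comparison. Here 5 were higher and 4 lower, with a median log2 fold change of -0.05. Over all genes the shares were 6.82% higher and 4.08% lower, so these counts lie near the background. The listed genes of variant PRC1 gave 4 of 26 lower and 0 higher, and those of canonical PRC1 2 of 8 higher and 0 lower. The deubiquitinases, which remove the mark of PRC1, gave 2 of 11 higher, the H3K27 demethylases 1 of 2 higher, and the PRC2 partners 0 of 10 in either direction. At an unadjusted p under 0.05, 17 of the 57 passed, where 22% of all genes did.

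Among the 4 lower genes, Kdm2b, the CpG-binding partner of Pcgf1, was the one whose groups did not overlap. It had 401 to 718 CPM (mean 545 ± 97.4, SD, n = 7) against 719 to 872 CPM (mean 801 ± 45.0, SD, n = 7) in controls. Its log2 fold change was -0.54 (SE 0.09), with an edgeR adjusted p of 0.000161. Pcgf3, which names another variant PRC1, fell by 0.56 on the log2 scale and the deacetylase Hdac2 by 0.52. Skp1a, a partner of Kdm2b, fell by 0.29. Of these, Hdac2 lost its call without control replicate 1 or treated replicate 5 or 7, at adjusted p values of 0.0504 to 0.0526. Skp1a lost it in 8 of the 14 fits, which left out control replicate 1, 2, 4 or 8 or treated replicate 2, 5, 7 or 8, at values up to 0.0978.

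Among the 5 higher genes, Kdm6b, a demethylase that removes H3K27 methylation, had 1043 to 1351 CPM (mean 1159 ± 98.2, SD, n = 7) against 795 to 1037 CPM (mean 881 ± 79.9, SD, n = 7). The groups did not overlap, and the log2 fold change was 0.41 (SE 0.07) with an edgeR adjusted p of 0.000219. Phc3, a polyhomeotic subunit of canonical PRC1, rose from 11.4 ± 4.43 to 35.6 ± 8.19 CPM (SD, n = 7 each), again without overlap, and by 1.66 on the log2 scale; 2.73% of all genes lay higher without overlap. Cbx2, which reads H3K27me3 for canonical PRC1, rose by 0.44. The deubiquitinase Bap1 rose by 0.33 and its partner Foxk1 by 0.54. Bap1 lost its call without control replicate 5 or 7 or treated replicate 1, at adjusted p values of 0.0519 to 0.0566. A single fit of all 5 groups kept 2 of the higher and 1 of the lower calls, Kdm6b, Foxk1 and Kdm2b. Of all 16319 genes in that fit, 266 were called higher and 115 lower.

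Of the partners of Pcgf6, Max, Mga, E2f6 and L3mbtl2 gave no call. Max had a log2 fold change of 0.01 (SE 0.09), turning to -0.01 under RLE scaling, library totals alone and DESeq2 and in the fit of all 5 groups, and Mga one of -0.13 (SE 0.10). E2f6 was near the bottom of the range, at 2.00 ± 1.19 and 3.54 ± 2.17 CPM (SD, n = 7 each), with a value of -0.79 (SE 0.58). L3mbtl2 had 0.35 (SE 0.13). The histone-binding PRC2 partners Rbbp4 and Rbbp7 had 0.13 and 0.21, the accessory subunit Mtf2 -0.46 and the demethylase Kdm6a -0.22. Mtf2 passed under RLE scaling (adjusted p 0.0429), library totals alone (0.0473), no filter (0.0454), DESeq2 (0.0181) and limma voom (0.0351), and Rbbp7 with limma voom (0.0400).

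**Figure D4:**
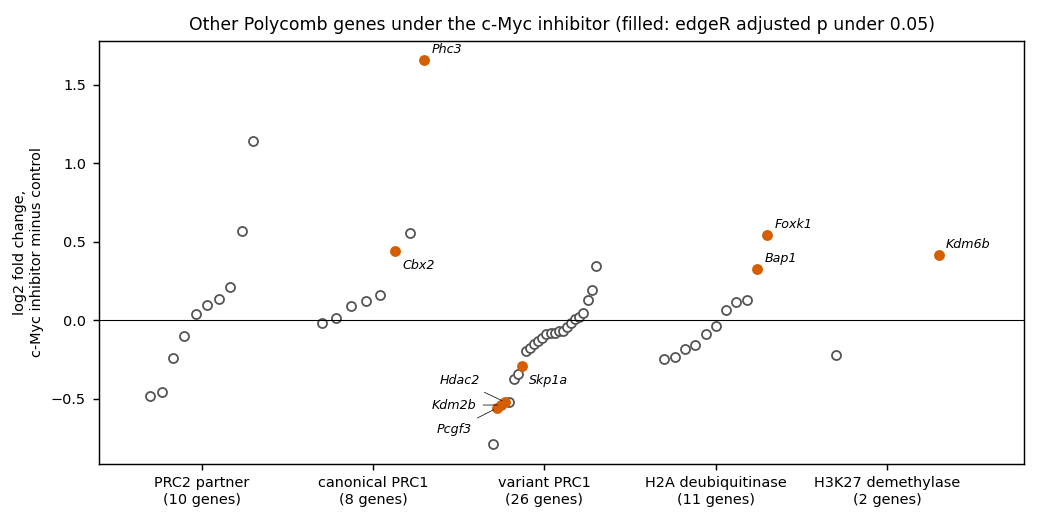
Log2 fold change of the 57 other Polycomb genes tested under the c-Myc inhibitor, by class, each point 1 gene and filled where the edgeR adjusted p is under 0.05. The 4 lower calls are all in variant PRC1, the class of 26 of these genes. The 5 higher calls are spread over canonical PRC1, the deubiquitinases and the demethylases. Of all genes tested, 4.08% were called lower and 6.82% higher.

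The comparison of alpha-amanitin embryos with their controls asked which transcripts depend on RNA polymerase II in the 1-cell embryo. No Polycomb member passed the edgeR test, none had an unadjusted p under 0.05, and none was called by DESeq2 or limma voom. Only 0.0305% of the 13133 genes tested were called, 4 genes in all, while 986 (7.51%) had an unadjusted p under 0.05. Member log2 fold changes ran from -0.18 to 0.47, with SEs of 0.14 to 0.29, and their median was 0.05 against -0.01 over all genes. These intervals are wide, so the comparison does not show that the genes kept their level.

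The 4 alpha-amanitin libraries had 661, 764, 951 and 777 CPM of Suz12, and the controls 696, 945, 724 and 880 CPM. They overlapped almost wholly, and the log2 fold change was -0.09 (95% interval -0.39 to 0.21). Rnf2 had 206, 259, 287 and 174 CPM under alpha-amanitin against 188, 177, 232 and 243 CPM, a log2 fold change of 0.10 (-0.29 to 0.49). Eed had 189, 230, 219 and 299 CPM against 129, 268, 235 and 241 CPM, a value of 0.05 (-0.38 to 0.49).

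Ezh1 had the member value farthest from 0, at 0.47 (-0.14 to 1.09). It stood at 153, 137, 143 and 104 CPM under alpha-amanitin and at 43.0, 131, 123 and 77.7 CPM in controls. Control replicate 1 was lowest of its group for Ezh1, Eed, Jarid2, Suz12 and, narrowly, Bmi1, and highest for Pcgf6. Without it the Ezh1 value was 0.22, and the Eed and Jarid2 values turned to -0.15 and -0.05. Ezh2 was at -0.02 (-0.35 to 0.30), Jarid2 at 0.08, Pcgf1 at -0.18 and Pcgf6 at -0.17.

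Bmi1 had 1062, 822, 1448 and 945 CPM under alpha-amanitin and 904, 1049, 1021 and 905 CPM in controls. The highest, replicate 3, was the shallowest library of the series with 5371602 counts. The log2 fold change of 0.10 (-0.23 to 0.42) turned to -0.10 without it, and the Rnf2 value to -0.04. Of the other Polycomb genes 0 of 56 passed the edgeR test and 8 had an unadjusted p under 0.05. Of these genes DESeq2 called 2 lower and limma voom none. Over all genes DESeq2 called 32 lower and limma voom 7.

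Control embryos of the alpha-amanitin series were compared with MII oocytes to ask what changes over the 10 h after fertilisation. This comparison and the next share libraries with the last one, so their values stand side by side and are not independent. Again no member passed the edgeR test, where 2.89% of 13133 genes were called, and limma voom called none. The members nearest the threshold were Pcgf6 and Ezh2, which had unadjusted p values of 0.00454 and 0.0391, where 14.1% of all genes were under 0.05. The median over the 9 members was 0.12, against -0.03 over all genes.

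Pcgf6 had 166, 160, 132 and 159 CPM in oocytes and 288, 208, 177 and 251 CPM in control embryos. Every embryo was above every oocyte, as in 4.42% of all genes. The log2 fold change was 0.62 (95% interval 0.22 to 1.03), with means of 231 ± 48.5 and 154 ± 15.0 CPM (SD, n = 4 each) and an edgeR adjusted p of 0.1005. DESeq2 called it, at an adjusted p of 0.0413, as did the fit of all 5 groups at 0.00728. In alpha-amanitin embryos Pcgf6 had 240, 239, 182 and 185 CPM, also all above the oocytes (as in 3.53% of all genes), and a log2 fold change against them of 0.45 (0.04 to 0.85) with an edgeR adjusted p of 0.382.

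Ezh2 had 474, 578, 563 and 672 CPM in oocytes and 637, 601, 813 and 778 CPM in control embryos. The ranges overlapped, and the log2 fold change was 0.34 (0.02 to 0.67), with an edgeR adjusted p of 0.305. Against the same oocytes, alpha-amanitin embryos gave 0.32 (-0.0054 to 0.65) for Ezh2. For Suz12 the control embryos gave 0.12 (-0.18 to 0.42), for Eed 0.10 (-0.33 to 0.54), for Rnf2 -0.03 (-0.42 to 0.36) and for Bmi1 0.18 (-0.14 to 0.51). Ezh1 was at -0.22, Jarid2 at 0.03 and Pcgf1 at 0.28, each with an interval that included 0.

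In alpha-amanitin embryos against oocytes all 9 members were above 0, from 0.03 for Suz12 to 0.45 for Pcgf6, and none passed. Their median was 0.16, against -0.04 over all genes, and the share of all genes above 0 was not computed. The signs were not stable, since Suz12 turned to -0.08 and Rnf2 to -0.04 with limma voom. Suz12, Rnf2 and Pcgf1 also turned below 0 in some fits that left out 1 library. Of all genes 1.71% were called by edgeR; DESeq2 and limma voom called no member, and 1 member, Pcgf6, had an unadjusted p under 0.05, as did 10.6% of all genes. Of the other Polycomb genes, 2 of 56 were higher than in oocytes in control embryos, Auts2 (0.67) and Asxl1 (0.48), where 1.11% of all genes were called higher. There Usp7 (-0.55) was lower, with 1.78% of all genes. In alpha-amanitin embryos Asxl1 (0.50) and Usp16 (0.77) were higher, with 0.442% of all genes. Each of these 5 calls failed in 6 or 7 of 8 refits without 1 library.

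The difference between the effects of the 2 inhibitors was tested in 1 model of all 22 embryo libraries. No member passed the edgeR test, against 1.04% of 15790 genes, and DESeq2 and limma voom called none. Rnf2 came nearest, at -0.51 (95% interval -0.89 to -0.14, adjusted p 0.149), followed by Suz12 at -0.35 (-0.64 to -0.05, adjusted p 0.213). These were the 2 members with an unadjusted p under 0.05, which 17.3% of all genes had. A lower Rnf2 or Suz12 under the c-Myc inhibitor and not under alpha-amanitin was therefore not shown as a difference between the treatments at this threshold. The treatments also sit in different series, so treatment and series cannot be told apart beyond each one's own controls.

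Ratios within a library do not depend on its total. The per-length ratio of Ezh2 to Ezh1 was 7.37 ± 0.675 (SD, n = 7) in controls of the c-Myc inhibitor, with a range of 6.01 to 8.10, and 5.30 ± 1.05 (SD, n = 7) in treated embryos, with a range of 3.33 to 6.21. The ranges overlapped only through control replicate 4 at 6.01 and treated replicates 2 and 4 at 6.21 and 6.09. In the other series it was 5.75 ± 1.22 in oocytes, 10.0 ± 4.98 in controls and 6.02 ± 1.00 under alpha-amanitin (SD, n = 4 each), where control replicate 1 alone reached 16.5. Suz12 to Eed gave 2.58 ± 0.323 in controls of that inhibitor and 2.36 ± 0.248 in treated embryos (SD, n = 7 each), with overlapping ranges. The ratio of Pcgf6 to Bmi1 was 0.155 ± 0.0295 and 0.147 ± 0.0166, also overlapping.

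**Figure D5:**
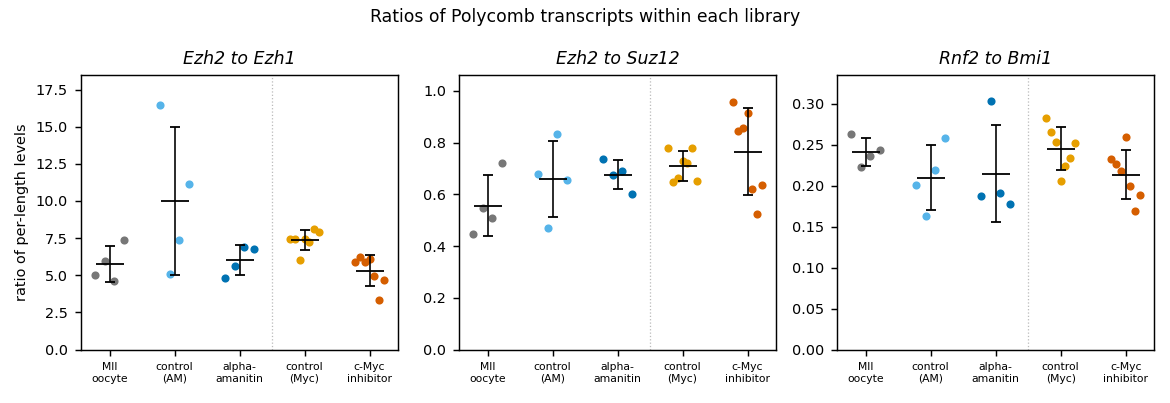
Ratios between members within each library on the per-length scale, by group, with the mean and SD as bars. For Ezh2 to Ezh1 the c-Myc inhibitor embryos, at 3.33 to 6.21, lie mostly below their controls, at 6.01 to 8.10, and control replicate 1 of the alpha-amanitin series lies apart at 16.5.

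For each of the 5 genes called under the c-Myc inhibitor, the 3 most similar genes were sought over the 26 libraries by Pearson correlation of log2(CPM + 1) among 7242 genes averaging 10 CPM or more. Suz12 was nearest to Ncapg (r = 0.85), Kpna3 (0.84) and Nol8 (0.81). Those of Eed included Aptx (0.76) and Senp6 (0.75), and Rnf2 was nearest to Spidr (0.84), Bmp2k (0.80) and Zfp638 (0.78). Bmi1 was nearest to Dcp2 (0.82), Dpp10 (0.80) and Zfp383 (0.80), and Pcgf6 to Rnf4 (0.81), Pttg1 (0.81) and Arpc3 (0.80). No member was among the 3 nearest of another. These values describe libraries that share series, depth and treatment, and carry no test.

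Genes that Polycomb is known to silence were mostly near 0. Of 24 classical targets such as Hox and lineage transcription factor genes, 7 or 8 had a group mean of at least 1 CPM. The highest was Gata4, at 26.8 to 35.3 CPM over the groups. Of 8 genes whose maternal copy is silenced through oocyte H3K27me3, 1 to 4 reached 1 CPM, and the highest group mean was that of Gab1, at 18.0 ± 18.6 CPM (SD, n = 4) in alpha-amanitin embryos. Those 4 libraries spread widely, from 1.48 to 41.5 CPM. Gab1 had group means of 2.72 to 5.14 CPM in the other groups. None of the 10 such genes tested under the c-Myc inhibitor passed the edgeR test or had an unadjusted p under 0.05. Of the 8 tested in the alpha-amanitin comparison none passed, and 1, Sfmbt2, had an unadjusted p under 0.05.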

How the data were processed

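RNA was measured in 26 libraries made with a stranded total RNA kit for very small input, per the labels' protocols, which describe single embryos lysed directly. The file the authors deposited holds unnormalized whole-number counts per Ensembl gene. The submitters' processing notes name cutadapt 1.7.1, STAR 2.5.0a and the GRCm38 build. How reads were counted, with which gene models and strandedness, was not given in the sources used here. All members, the other Polycomb genes, the targets and the marker lists were chosen with earlier results of these data known.

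Counts were analysed in R 4.3.3 with the edgeR 4.0.16 quasi-likelihood test, TMM scaling, filterByExpr (minimum count 10, minimum total count 15) and Benjamini-Hochberg adjustment over all genes tested at 0.05. The c-Myc inhibitor comparison used its own 14 libraries, the 3 comparisons of the alpha-amanitin series 1 fit of 12 libraries, and the difference of effects 1 fit of 22. CPM uses raw totals, and log2 fold changes use TMM-scaled totals. Standard errors come from the quasi-likelihood F, and 95% intervals use its degrees of freedom. The scripts were tested on simulated data with 200 abundant genes changed. Of changes of 0.5 on the log2 scale, 75.5% were recovered in the c-Myc inhibitor comparison and 0% in the alpha-amanitin comparison. Of changes of 1, 99.5% and 50.5% were recovered. The named genes are all members, per comparison up to 6 called genes in each direction from the other Polycomb list, 11 genes given where measured, and the 3 genes most like each called member. One of the latter is not reported here. Sfmbt2, Gata4 and Gab1 stand outside this rule and were chosen after their values were seen. Alternatives were RLE scaling, library totals alone, no filter, DESeq2 1.42.0, limma voom 3.58.1, the replicate block, 1 fit of all 5 groups and leaving out each library. A count of 0 allows up to 3 counts of a library. No 2 columns held identical values.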

Additional observations from a re-analysis of the deposited data

Results flagged for a closer look

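One value stood apart from its group. Jarid2 had 363 CPM in alpha-amanitin replicate 4, where the nearest of the other 3 libraries had 323 CPM. The gap was 0.834 of the group's range, just over Dixon's 95% critical value for 4 libraries. It was the only one among 45 sets of a member and a group that were checked, and chance gives such a gap in about 1 of 20 sets. No call rests on it, since Jarid2 passed no test in any comparison.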

How the results depend on the processing

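In the c-Myc inhibitor comparison Suz12 and Rnf2 were called under all 7 alternatives and in all 14 fits that left out 1 library. The members called lower numbered 2 in 1 fit of all 5 groups, and 3 to 6 with 1 library left out; those called higher stayed at 0. The other Polycomb genes called lower were 7 with DESeq2 and 1 in the fit of all 5 groups, where 2 were called higher. With 1 library left out they were 2 to 6 lower and 4 to 5 higher. Over all genes, lower calls were 531 in the main fit, 859 with DESeq2 and 115 in the fit of all 5 groups. Higher calls were 887 in the main fit and 266 in the fit of all 5 groups. With 1 library left out 391 to 571 of all genes were lower and 762 to 901 higher. Max turned from 0.01 to -0.0134 under RLE scaling, -0.0090 with totals alone, -0.0133 with DESeq2 and -0.0066 in the fit of all 5 groups, and ran from -0.0424 to 0.0407 with 1 library left out.

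In the alpha-amanitin comparison no member was called under any alternative. The other Polycomb genes called lower were 1 with no filter, 2 with DESeq2 and 2 in the fit of all 5 groups. Over all genes, lower calls were 1 in the main fit, 15 with no filter, 32 with DESeq2 and 40 in the fit of all 5 groups. Ezh2 turned to 0.0012 under RLE scaling, 0.0293 with totals alone and 0.00072 with DESeq2, Rnf2 to -0.0075 and Bmi1 to -0.0241 with limma voom. An alternative chosen after seeing the data left out the alpha-amanitin libraries of lowest and highest total; there Rnf2 was at -0.0239 and Bmi1 at -0.208. With 1 library left out Ezh2 ran from -0.160 to 0.0376, Eed from -0.148 to 0.166, Jarid2 from -0.0536 to 0.139, Rnf2 from -0.0390 to 0.204 and Bmi1 from -0.103 to 0.195.

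For control embryos against oocytes, 1 member was called higher with DESeq2 and 1 in the fit of all 5 groups. The other Polycomb genes called higher were 5 with DESeq2, 4 with limma voom, 10 in the fit of all 5 groups and 5 with the added alternative. Those called lower were 2 with no filter, 2 with DESeq2, 3 with limma voom and 3 in the fit of all 5 groups. With 1 library left out they were 0 to 2 higher and 0 to 1 lower. Over all genes, higher calls were 146 in the main fit, 285 with DESeq2 and 280 with limma voom. They were 572 in the fit of all 5 groups and 250 with the added alternative. Lower calls over all genes were 234 in the main fit and 314 with no filter. They were 484 with DESeq2, 660 with limma voom and 837 in the fit of all 5 groups. With 1 library left out 63 to 122 of all genes were higher and 146 to 218 lower. Jarid2 turned to -0.0078 with totals alone. With 1 library left out Ezh1 ran from -0.443 to 0.0267, Eed from -0.0261 to 0.294, Jarid2 from -0.0461 to 0.152 and Rnf2 from -0.115 to 0.0280.

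For alpha-amanitin embryos against oocytes, the other Polycomb genes called higher were 0 with no filter, 4 with DESeq2, 5 in the fit of all 5 groups and 0 with the added alternative. Those called lower were 1 with DESeq2, 2 with limma voom and 2 in the fit of all 5 groups. With 1 library left out they were 0 to 2 higher and 0 to 1 lower. Over all genes, higher calls were 58 in the main fit, 186 with no filter and 219 with DESeq2. They were 329 in the fit of all 5 groups and 44 with the added alternative. Lower calls over all genes were 167 in the main fit and 311 with DESeq2. They were 401 with limma voom and 530 in the fit of all 5 groups. With 1 library left out 20 to 82 of all genes were higher and 102 to 248 lower. With limma voom Suz12 was at -0.0778 and Rnf2 at -0.0393; with the added alternative Suz12 was at -0.0258, Rnf2 at -0.0512 and Bmi1 at -0.0240. With 1 library left out Suz12 ran from -0.0847 to 0.0805, Rnf2 from -0.0635 to 0.180 and Pcgf1 from -0.0502 to 0.286.

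For the difference of effects, the other Polycomb genes called higher were 1 under RLE scaling, 4 with no filter, 5 with DESeq2, 1 with limma voom and 4 in the fit of all 5 groups. Those called lower were 1 with totals alone, 1 with no filter, 3 with DESeq2, 1 with limma voom and 1 with the added alternative. With 1 library left out they were 0 to 3 higher and 0 to 1 lower. Over all genes, higher calls were 107 in the main fit, 111 under RLE scaling and 234 with no filter. They were 413 with DESeq2, 110 with limma voom and 155 in the fit of all 5 groups. Lower calls over all genes were 58 in the main fit, 84 with totals alone and 209 with no filter. They were 629 with DESeq2, 57 with limma voom and 98 with the added alternative. With 1 library left out 67 to 167 of all genes were higher and 25 to 113 lower. Pcgf1 turned to -0.0433 with totals alone, -0.104 with limma voom and -0.0932 with the added alternative, and ran from -0.154 to 0.166 with 1 library left out, where Pcgf6 ran from -0.229 to 0.0127.

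The replicate numbers were not taken to pair the libraries: deviations of same-numbered libraries correlated at -0.0362 to 0.0715 over 6 pairs in the c-Myc inhibitor series and at -0.0219 to 0.0314 in the other. With the replicate block, members called lower under the c-Myc inhibitor were 4, without Bmi1 (adjusted p 0.158). Of the other Polycomb genes, Bap1 lost its call there (adjusted p 0.0837), 1 was called higher in control embryos against oocytes, and 0 in alpha-amanitin embryos against oocytes. Over all genes the block gave 291 lower calls under the c-Myc inhibitor. It gave 129 higher calls in control embryos and 40 in alpha-amanitin embryos against oocytes. The cause of these changes was not tested. Ring1 and E2f6 had too few counts to be compared closely. The biological coefficient of variation was 1.12 over the 12 libraries of the alpha-amanitin series, with 4 in a group, and 0.555 over the 14 of the c-Myc inhibitor series, with 7 in a group.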
